A study of Mus musculus with 14 samples.

Results

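Imprinted genes are expressed mainly or only from the copy inherited from 1 parent. The 37 imprinted genes described here were listed by name: 25 are known for expression of the paternal copy, 11 for expression of the maternal copy, and Gnas for either, depending on the promoter. Of these, 32 had at least 1 RefSeq entry, against 20242 genes with an entry in all, and their 54 entries were summed by gene. H19, Meg3, Kcnq1ot1, Peg13 and Airn make noncoding RNA and had no entry, so their expression was not analysed here.

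The data were RPKM values (reads per kilobase of transcript, relative to all reads counted in the library) of 14 single mouse embryos at the 2-cell stage, made by somatic cell nuclear transfer (SCNT) of a cumulus cell nucleus into a B6D2F1 oocyte. All were activated with strontium chloride and cultured in mKSOM with deionized bovine serum albumin, and were collected at 28 h after nuclear transfer per the labels. Control embryos (n = 3) received neither agent. TSA, trichostatin A, an inhibitor of histone deacetylases, was given at 50 nM for the first 8 h from the commencement of activation, and VC, vitamin C, at 10 µg/ml either over the same 8 h or from 8 to 15 h. The treated groups were VC(0-8h) (n = 1), VC(8-15h) (n = 2), TSA(0-8h) (n = 3), TSA(0-8h)+VC(0-8h) (n = 2) and TSA(0-8h)+VC(8-15h) (n = 3). Each library came from 1 embryo, so a replicate is an embryo. No fertilized embryos were analysed here.

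The marks that tell the parental copies apart are laid down in the germ line as DNA methylation, read by ZFP57 and TRIM28 and kept through cleavage, or, for a smaller set that includes Sfmbt2, Gab1 and Slc38a4, as maternal H3K27 trimethylation. A cumulus nucleus brings both parental copies in their somatic state and has not passed through the germ line again. The oocyte also stores transcripts of its own, which in a 2-cell embryo cannot be told apart from new ones in these values. RPKM values carry no information on the allele, so they give the level of an imprinted gene and not its imprint. They are also relative to the reads of the embryo, so that less of a transcript and more of all others cannot be told apart.

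Between 3021540 and 13589389 reads were counted per embryo, so that 3 reads on a transcript of 1 kb came to between 0.221 RPKM, at the greatest depth, and 0.993 RPKM, at the lowest. Genes at 1 RPKM or more numbered 4461 ± 770 (SD, n = 3) without treatment, 3718 ± 366 after TSA(0-8h) alone and 5162 ± 112 after TSA(0-8h)+VC(8-15h), with the fewest, 3105, in VC(8-15h) replicate 2. Of 12 oocyte markers, 9 reached 1 RPKM in at least 7 embryos, and so did 5 of the 10 markers of the 2-cell embryo that had an entry. Of 12 cumulus cell markers, 8 stayed under 1 RPKM in every embryo. The others were Amhr2, which reached 1 RPKM in 7 embryos, and Has2, Fst and Star, in 1 each. The summed level of the cumulus list ranged from 0.0789 to 18.4 RPKM in control embryos, from 0.142 to 144 with TSA(0-8h), and from 2.13 to 63.5 with TSA(0-8h)+VC(8-15h). The sum of 144 was nearly all Amhr2, so these sums do not measure the cumulus list as a whole. Of 10 genes that every cell uses, 6 were listed at 0 in at least 1 embryo, so a value of 0 in a single embryo does not show that a transcript was absent.

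The sequence between the divergent starts of Peg3 and Usp29 is shown first, because Usp29 gave the clearest pattern with VC while its neighbour did not. Both are paternally expressed genes of 1 imprinted domain. It is printed 5′ to 3′ on the plus strand (RefSeq promoters, build GRCm38.p6, chr7:6730420-6730582), with its 5 CpG dinucleotides in capitals.
Peg3-Usp29: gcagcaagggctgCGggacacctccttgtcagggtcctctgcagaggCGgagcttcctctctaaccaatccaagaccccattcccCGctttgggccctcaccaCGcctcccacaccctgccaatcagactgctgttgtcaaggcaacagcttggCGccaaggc

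The 150 bases before the starts of Ube3a (plus strand, chr7:59228600-59228749) and Igf2r (minus strand, chr17:12769707-12769856), the maternally expressed genes that were detected most widely, held 22 and 19 CpG dinucleotides, again in capitals.
Ube3a: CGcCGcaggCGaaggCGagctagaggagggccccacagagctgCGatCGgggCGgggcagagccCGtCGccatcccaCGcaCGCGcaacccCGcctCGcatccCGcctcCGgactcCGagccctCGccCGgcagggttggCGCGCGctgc
Igf2r: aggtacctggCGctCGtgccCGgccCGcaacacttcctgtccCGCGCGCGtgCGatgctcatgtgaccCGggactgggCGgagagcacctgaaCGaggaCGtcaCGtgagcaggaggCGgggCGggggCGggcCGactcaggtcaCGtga

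Promoter windows of 250 bases before to 50 bases after a start were found for 29 of the 37 genes, in 47 windows. Meg3, Kcnq1ot1 and Airn, which had no RPKM entry, were among the 29. They held a median of 15 CpG dinucleotides, against 7 in all 32851 windows. TGCCGC, the methylated hexamer to which ZFP57 binds, occurred on either strand in 25.5% of the windows of imprinted genes and 11.6% of all windows. Overlapping windows of Mest with the same matches were counted separately. By gene, 11 of 29 imprinted genes held the hexamer, beside 3527 of all 27025. The hexamer includes a CpG dinucleotide, and the share among windows with like CpG counts was not computed. The stretch between Peg3 and Usp29 and the windows of Ube3a and Igf2r held none. Matches are shown with up to 10 bases on either side for Snrpn (minus strand, chr7:60005186-60005211), Mest (chr6:30737973-30737998) and Plagl1 (chr10:13090732-13090757), with the hexamer, here in its reverse complement GCGGCA, in capitals. A match is a description of the letters only.
Snrpn: cccctgcattGCGGCAaaaatgtgcg
Mest: gaggggcgctGCGGCAggatgggcgg
Plagl1: ggcgtgttgcGCGGCAaagcccacgg

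Imprinted genes were detected widely about as often as all genes. Igf2r reached 1 RPKM in 13 of 14 embryos, Mest and Gnas in 10, Ube3a in 8, and Snrpn, Usp29 and Sfmbt2 in 7. These 7 were 21.9% of the 32 genes, and 21.6% of all 20242 genes were detected as widely. Mest was among them only on the sum of its entries: in control replicate 1, TSA(0-8h) replicate 1 and TSA(0-8h)+VC(0-8h) replicate 1 its level rested on 1 read, and in VC(8-15h) replicate 2 on 2. With reads over the summed length of the entries it reached 1 RPKM in 6 embryos and Gnas in 9, which left 6 widely detected genes. A further 12 genes reached 1 RPKM in 1 to 6 embryos, 8 stayed above 0 but under 1 RPKM, and 5 (Nap1l5, Sgce, Cdkn1c, Phlda2 and Ascl2) were listed at 0 in all embryos. None of the 32 reached 1 RPKM in all 14 embryos, as 845 of all 20242 genes did. Of the paternally expressed genes with an entry, 4 of 22 were detected in at least 7 embryos, and of the maternally expressed genes, 2 of 9.

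**Figure D1:**
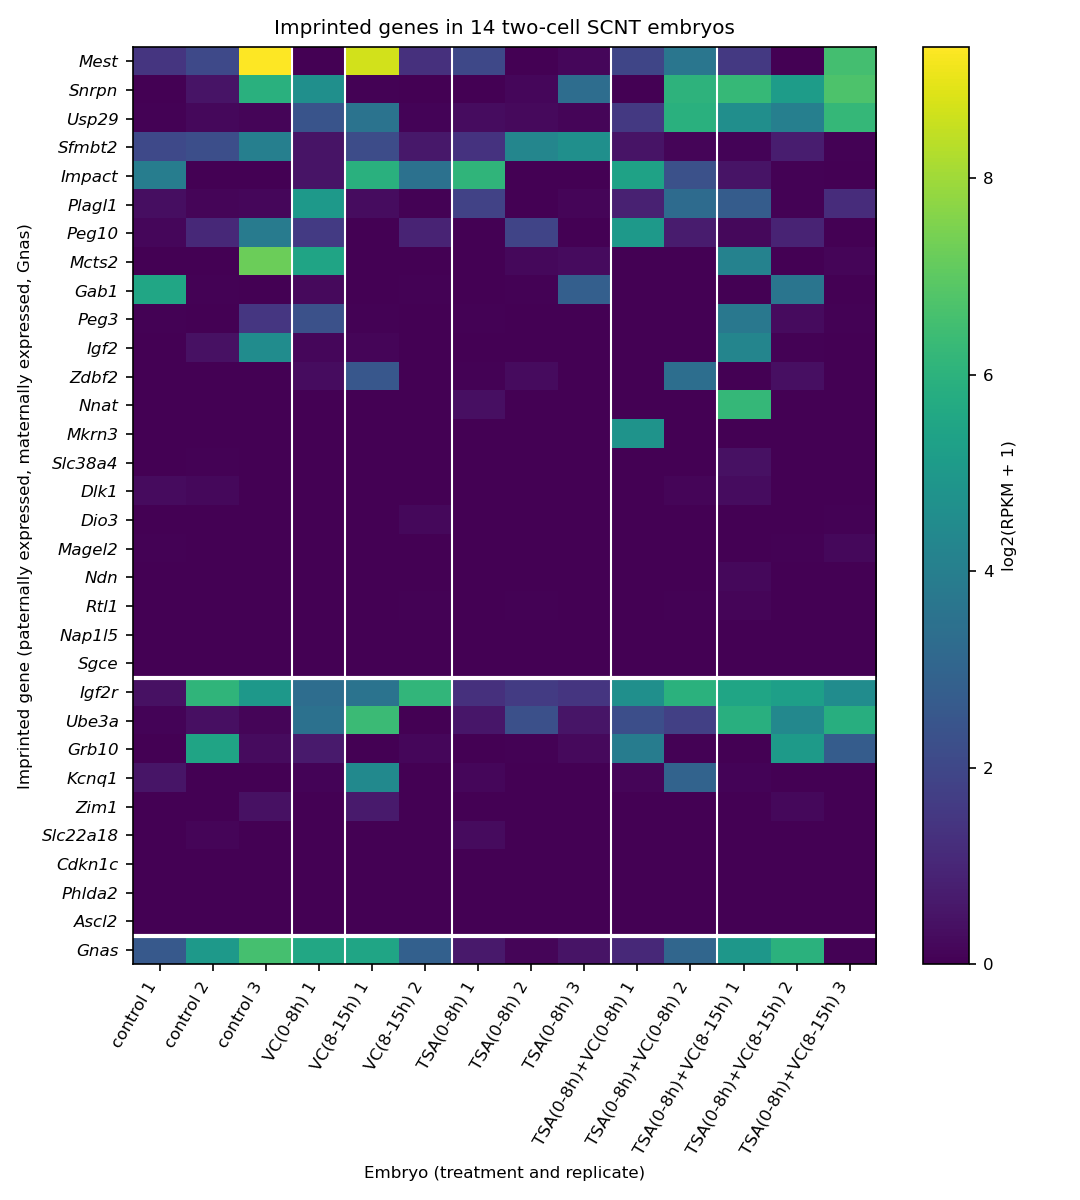
Levels of the 32 imprinted genes with an entry (rows; paternally expressed, maternally expressed and Gnas, split by white lines) in the 14 embryos (columns, split by treatment), as log2(RPKM + 1) on a colour scale. Of the rows, 7 reach 1 RPKM in at least 7 embryos, 12 in 1 to 6 embryos and 13 in none, of which 5 are at 0 throughout.

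Each embryo held between 4 and 11 imprinted genes at 1 RPKM or more. The 3 TSA(0-8h) embryos held 4 or 5, the control embryos 5 to 9 and the TSA(0-8h)+VC(8-15h) embryos 7 to 11. The number of all genes at 1 RPKM ran the same way over these groups, and its part in the counts of imprinted genes was not tested.

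**Figure D2:**
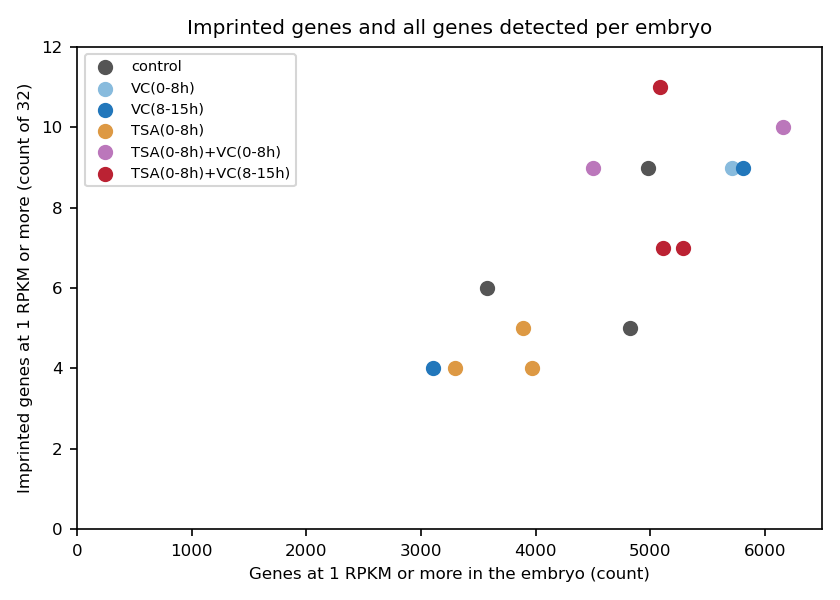
Imprinted genes at 1 RPKM or more (vertical axis, count of 32) against all genes at 1 RPKM or more (horizontal axis, count), 1 point per embryo, coloured by treatment. The embryos with the fewest genes, VC(8-15h) replicate 2 and TSA(0-8h) replicate 2, held 4 imprinted genes each, control replicate 2 held 6 beside 3576 genes in all, and the embryo with the most imprinted genes, 11, was TSA(0-8h)+VC(8-15h) replicate 1.

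Among the paternally expressed genes, Usp29, which encodes a deubiquitinating enzyme, was near 0 without VC. Its RPKM values were 0.0504, 0.159 and 0.0804 in control embryos and 0.226, 0.175 and 0.0930 in TSA(0-8h) embryos. They were 23.8, 15.3 and 72.8 in TSA(0-8h)+VC(8-15h) embryos, 1.93 and 59.2 after TSA(0-8h)+VC(0-8h), 4.33 in the VC(0-8h) embryo, and 10.6 and 0.0624 in VC(8-15h) embryos. Of the 8 embryos with VC, 7 were above all 6 without it, and the exception was VC(8-15h) replicate 2, the embryo with the fewest genes. Over all 15598 genes above 0, 0.455% showed this pattern of at least 7 of 8 above. Only a gene above 0 in at least 7 embryos with VC could show it. This pattern was chosen after the values were seen.

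Peg3, a zinc finger protein gene that starts next to Usp29 on the opposite strand, reached 1 RPKM in 3 embryos only. Its values were 1.77 in control replicate 3, 3.93 in the VC(0-8h) embryo and 12.2 in TSA(0-8h)+VC(8-15h) replicate 1. Both genes were at 1 RPKM or more in 2 of the 7 embryos with Usp29. In TSA(0-8h)+VC(8-15h) replicate 3, where Usp29 was at its highest, Peg3 stood at 0.0491 RPKM. Zim1, a maternally expressed gene of the same domain, did not exceed 0.579 RPKM.

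Sfmbt2, a Polycomb group protein gene (mm9 chr2:10292137-10516880) with a maternal H3K27 trimethylation imprint, showed the opposite order. Its RPKM values were 3.21, 3.71 and 15.5 in control embryos and 1.61, 18.5 and 24.3 in TSA(0-8h) embryos. They were 0.0590, 0.659 and 0.0313 in TSA(0-8h)+VC(8-15h) embryos, 0.393 and 0.0880 after TSA(0-8h)+VC(0-8h), 0.391 in the VC(0-8h) embryo, and 3.53 and 0.507 in VC(8-15h) embryos. Again 7 of the 8 embryos with VC lay on 1 side of all 6 without, here below. The exception was VC(8-15h) replicate 1. Of all 15598 genes above 0, 0.0513% showed that pattern, but a gene at 0 in any embryo without VC could not show it. The share among genes at like levels was not computed. This pattern too was chosen after the values were seen.

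The Sfmbt2 level rests on 2 entries. In control replicate 3, 249 reads lay on NM_001198809 and 13 on NM_001198808. In TSA(0-8h) replicate 3, 248 reads lay on the former and 600 on the latter, and the former was at 0 in the other 12 embryos. The recovered length of NM_001198809 was 1191 bases, which matches 1 Sfmbt2 exon only, at mm9 chr2:10359574-10360764, the last exon of the short transcripts Sfmbt2-002, Sfmbt2-003 and Sfmbt2-004. On NM_001198808 alone control replicate 3 stood at 0.123 RPKM, and 3 of 8 embryos with VC, not 7, were below all 6 without. With the reads of all entries taken over their summed length, control replicate 3 stood at 2.14 RPKM and the count was 7 of 8.

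Of the other genes with that kind of imprint, Gab1, a docking protein of growth factor receptors, reached 1 RPKM in 3 embryos of different treatments. These were control replicate 1 (45.2), TSA(0-8h) replicate 3 (6.13) and TSA(0-8h)+VC(8-15h) replicate 2 (11.4). Slc38a4, an amino acid transporter gene, did not exceed 0.351 RPKM.

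Snrpn, a gene of the Prader-Willi domain that encodes a spliceosomal protein (mm9 chr7:67127388-67285105), was high in every TSA(0-8h)+VC(8-15h) embryo. Its RPKM values there were 76.3, 34.5 and 106, against 0, 0.421 and 59.5 in control embryos and 0, 0.123 and 9.06 in TSA(0-8h) embryos. It stood at 24.1 in the VC(0-8h) embryo, at 0.0488 and 0 in VC(8-15h) embryos, and at 0 and 64.7 in TSA(0-8h)+VC(0-8h) embryos. The TSA(0-8h)+VC(8-15h) embryos overlapped with control but not with TSA(0-8h) embryos. Of the neighbours of Snrpn, Ndn had 1 read in all and Magel2 did not exceed 0.157 RPKM. Mkrn3 stood at 26.8 RPKM in 1 embryo, TSA(0-8h)+VC(0-8h) replicate 1, and at 0 in all others.

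Mest, which encodes a protein of the alpha/beta hydrolase fold (mm9 chr6:30673547-30698457), had the widest range. Its RPKM values were 1.71, 3.17 and 645 in control, 0 in VC(0-8h), 412 and 1.47 in VC(8-15h), 3.06, 0 and 0.128 in TSA(0-8h), 2.84 and 11.6 in TSA(0-8h)+VC(0-8h), and 1.90, 0 and 91.6 in TSA(0-8h)+VC(8-15h) embryos. High and low embryos occurred within the same group.

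The highest Mest embryos did not hold the same part of the gene. In control replicate 3, 947 reads lay on NM_001252293 and 5 on NM_001252292. In TSA(0-8h)+VC(8-15h) replicate 3, NM_001252293 was at 0 and 2998 reads lay on NM_001252292. The recovered length of NM_001252293 was 108 bases, and 1 Mest exon has that length, the 5′ untranslated first exon of transcript Mest-002 at mm9 chr6:30683506-30683613, upstream of the start of Mest-001. With reads taken over the summed length of the entries, control replicate 3 stood at 25.3 RPKM, VC(8-15h) replicate 1 at 18.6 and TSA(0-8h)+VC(8-15h) replicate 3 at 88.03. The order of the highest embryos thus turned with how entries were joined.

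**Figure D3:**
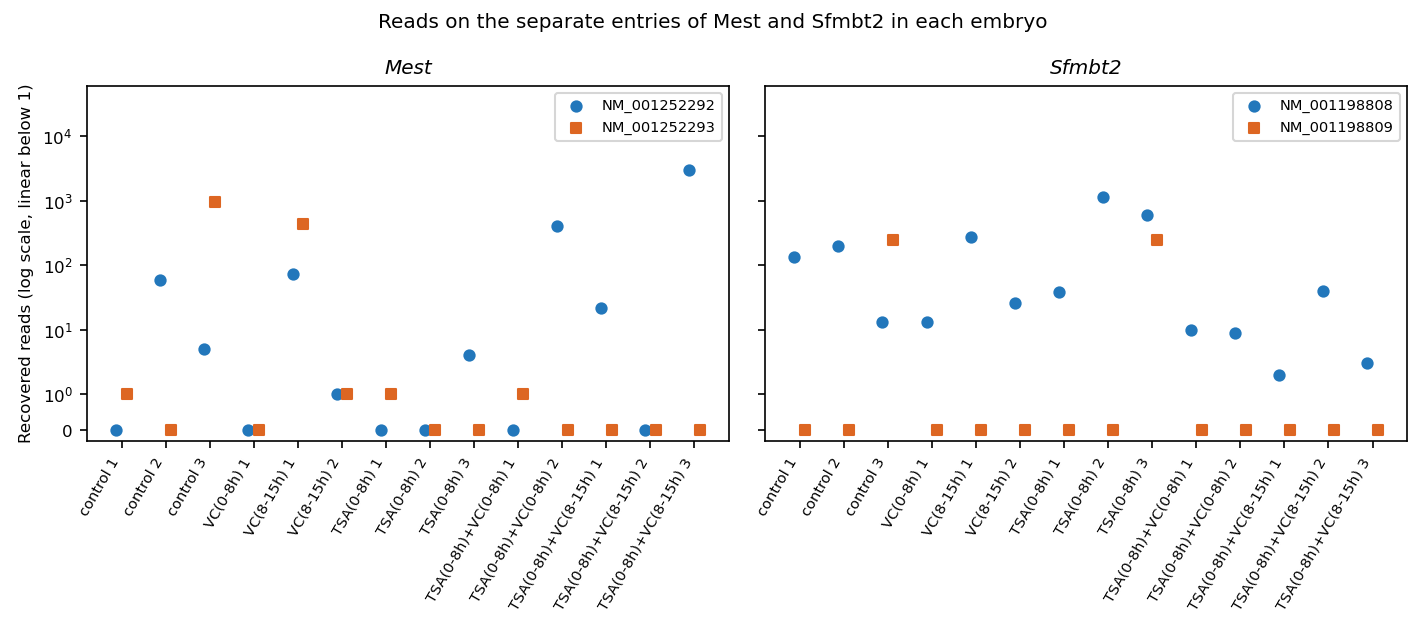
Reads recovered on the separate entries of Mest (left) and Sfmbt2 (right) in each of the 14 embryos, on a log axis that is linear below 1. The Mest reads of control replicate 3 lie on the 108-base entry (947 reads), those of TSA(0-8h)+VC(8-15h) replicate 3 on the other (2998 reads), and the 1191-base entry of Sfmbt2 has reads in 2 embryos.

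The other paternally expressed genes each reached 1 RPKM in at most 6 embryos. Impact, a regulator of the translation kinase GCN2, stood at 14.7 RPKM in control replicate 1, 59.6 and 10.3 in VC(8-15h), 67.6 in TSA(0-8h) replicate 1, and 40.2 and 4.0 in TSA(0-8h)+VC(0-8h) embryos, and was under 1 RPKM elsewhere. Plagl1, a zinc finger transcription factor gene, was highest in the VC(0-8h) embryo at 32.6 RPKM and was above 0 in every embryo. Peg10, which derives from a retrotransposon, was highest in TSA(0-8h)+VC(0-8h) replicate 1 at 31.4 RPKM. Igf2, a fetal growth factor gene, reached 22.3 RPKM in control replicate 3 and 18.1 in TSA(0-8h)+VC(8-15h) replicate 1 and no more than 0.325 elsewhere.

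Nnat, which encodes a small membrane proteolipid, stood at 73.4 RPKM in TSA(0-8h)+VC(8-15h) replicate 1 and at no more than 0.293 elsewhere. Zdbf2, a zinc finger gene, reached 4.74 RPKM in VC(8-15h) replicate 1 and 9.26 in TSA(0-8h)+VC(0-8h) replicate 2. Mcts2, a retrogene within an intron of H13, reached 151 RPKM in control replicate 3, 43.1 in the VC(0-8h) embryo and 16.8 in TSA(0-8h)+VC(8-15h) replicate 1. It is a copy of Mcts1, which was listed at 0 in every embryo, so reads of the 2 genes may not have been told apart. Dlk1, Rtl1 and Dio3 of the Dlk1 domain did not exceed 0.254, 0.0880 and 0.163 RPKM. The 4 Dlk1 entries each held 1 read in the same 4 embryos, so its sum may count a read more than once.

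Among the maternally expressed genes, Igf2r, the receptor that clears the growth factor IGF2 (mm9 chr17:12875272-12962530), was the most widely detected. Its RPKM values were 0.351, 67.7 and 30.8 in control, 1.48, 2.08 and 1.69 in TSA(0-8h), 44.3, 38.0 and 22.4 in TSA(0-8h)+VC(8-15h), 24.03 and 61.1 in TSA(0-8h)+VC(0-8h), 9.02 in VC(0-8h), and 10.7 and 69.3 in VC(8-15h) embryos. The TSA(0-8h) embryos were below every embryo with VC and below 2 of 3 control embryos. The noncoding Airn overlaps Igf2r on the opposite strand, and the counting was not stated to use strand.

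Ube3a, a ubiquitin ligase gene whose imprint is known from neurons (mm9 chr7:66484122-66562097), was low in control embryos, at 0.0649, 0.307 and 0.104 RPKM. It stood at 0.466, 3.92 and 0.449 in TSA(0-8h), 58.1, 19.4 and 57.2 in TSA(0-8h)+VC(8-15h), 3.77 and 2.39 in TSA(0-8h)+VC(0-8h), 10.2 in VC(0-8h), and 80.6 and 0 in VC(8-15h) embryos. Of the 8 embryos with VC, 5 were above all 6 without, and VC(8-15h) replicate 2 was again the lowest.

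Grb10, an adaptor that dampens insulin signalling, reached 1 RPKM in 4 embryos: 42.4 in control replicate 2, 14.2 in TSA(0-8h)+VC(0-8h) replicate 1, then 32.7 (replicate 2) and 5.54 (replicate 3) with TSA(0-8h)+VC(8-15h). Kcnq1, a potassium channel gene, reached 20.6 RPKM in VC(8-15h) replicate 1 and 6.88 in TSA(0-8h)+VC(0-8h) replicate 2. Of the neighbours of Kcnq1, Cdkn1c, Phlda2 and Ascl2 were listed at 0 and Slc22a18 did not exceed 0.220 RPKM.

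Gnas, which encodes the alpha subunit of the stimulatory G protein and several other products (mm9 chr2:174109821-174172245), was lower with TSA alone. Its RPKM values were 5.17, 30.9 and 94.7 in control, 47.1 in VC(0-8h), 43.8 and 6.30 in VC(8-15h), and 0.537, 0.104 and 0.401 in TSA(0-8h) embryos. They were 1.12 and 7.47 in TSA(0-8h)+VC(0-8h), and 29.4, 61.4 and 0.0331 in TSA(0-8h)+VC(8-15h) embryos. No control and TSA(0-8h) embryos overlapped. Of its entries, NM_022000 held 6999 reads over the 14 embryos and no other held more than 7. Which exons that entry covers was not determined, so the promoter used could not be read from it.

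**Figure D4:**
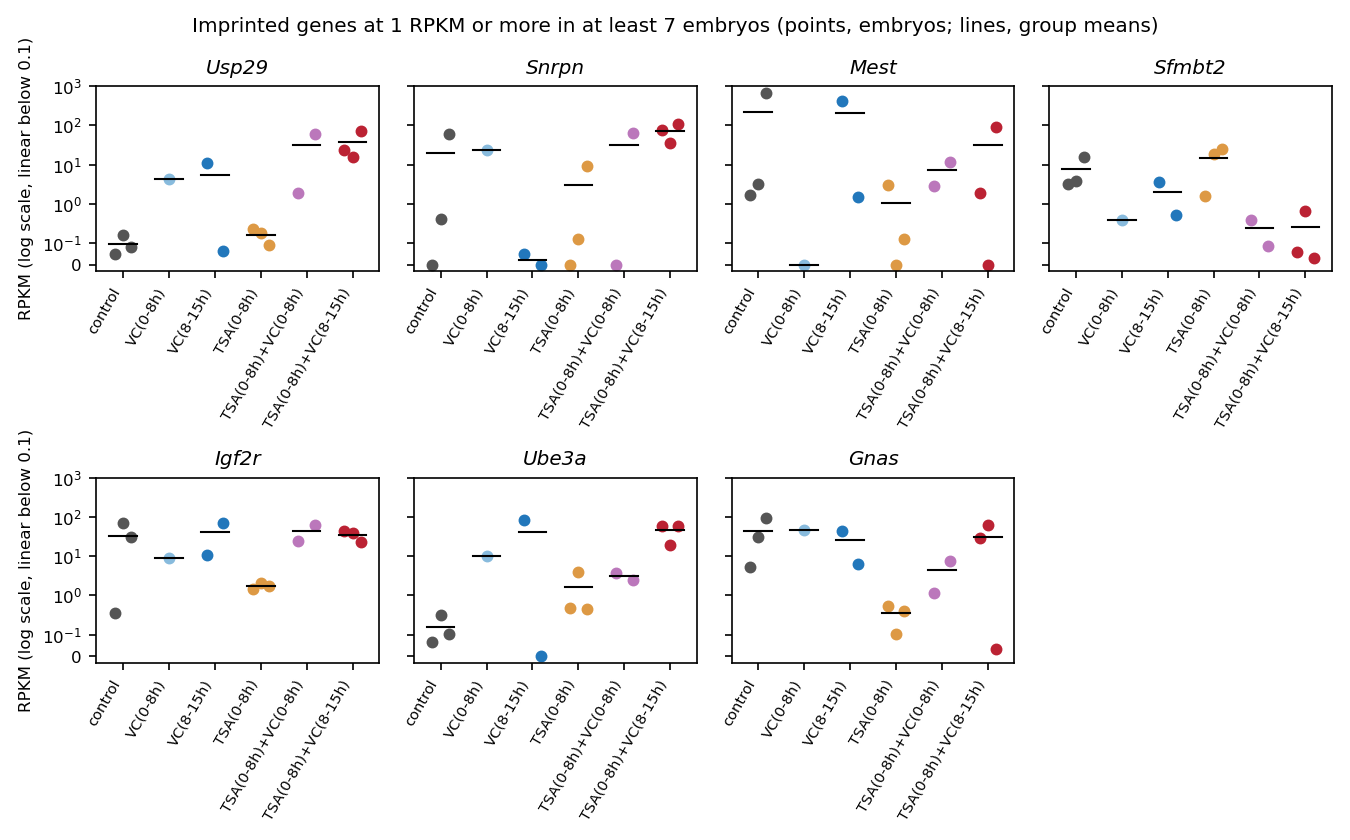
RPKM values of the 7 imprinted genes detected in at least 7 embryos, by treatment, on a log axis that is linear below 0.1; points are embryos and lines are group means. Usp29 lies under 0.3 in all embryos without VC, Sfmbt2 lies under 1 in all but 1 embryo with VC, and Gnas lies under 1 in the 3 TSA(0-8h) embryos.

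The first comparison asked how TSA followed by late VC differed from no treatment. The 3 TSA(0-8h)+VC(8-15h) embryos were above all 3 control embryos for Usp29, Ube3a and Rtl1, the last of which rested on 4 reads in all, and below them for Sfmbt2. Those were 3 of 26 imprinted genes above 0, while 5.08% of all genes were higher in this sense, and 1 of 26, while 2.34% of all genes were lower. Differences were tested with limma on log2(RPKM + 1) over 3323 genes at 1 RPKM or more in all 3 embryos of either group. Of 7 imprinted genes tested, 0 passed an adjusted p of 0.05, as did 0% of all genes in either direction. In simulated data with the spread of the real data, this fit called 26.9% of genes changed by 4 log2 units. The counts of 0 thus do not show that no gene changed. Without adjustment, p was under 0.05 for 2 higher and 1 lower, beside 13.9% and 3.76% of all genes.

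The log2 difference was 4.82 (SE 1.30, limma adjusted p = 0.112) for Usp29 and 5.16 (SE 1.40, limma adjusted p = 0.112) for Ube3a. For Snrpn it was 3.91 (SE 1.86, adjusted p = 0.283), and for Sfmbt2 -2.50 (SE 0.85, adjusted p = 0.124), which became -1.63 (adjusted p = 0.156) with reads over the summed length of the entries. The differences of Igf2r (1.27), Gnas (-1.09) and Mest (-1.59) were smaller than their standard errors. Usp29, Ube3a, Snrpn and Igf2r were tested only because all 3 treated embryos reached 1 RPKM, and Sfmbt2, Gnas and Mest only because all 3 control embryos did. The median log2 difference of all genes tested was 0.78, against 0.10 after median-ratio scaling and 0.29 after quantile normalization. Usp29, Ube3a and Snrpn stayed above and Sfmbt2 below 0 with either. Each of the 3 library pools held 1 embryo of each group. Usp29, Ube3a and Sfmbt2 did not overlap between the groups, which fixed their direction within every pool. Snrpn, which did overlap, was higher in 3 of 3.

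With other settings Usp29 and Ube3a passed the threshold: at a pseudocount of 0.1 (adjusted p = 0.0280 and 0.0393), at a minimum of 5 RPKM (0.00739 and 0.00790), and with limma-voom on recovered reads (1.86e-05 and 0.000577). Of all genes tested, 2.56%, 6.07% and 7.52% were called higher in these fits. Snrpn passed with limma-voom alone (adjusted p = 0.0110).

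The second comparison asked how TSA alone differed from control. Every TSA(0-8h) embryo was below every control embryo for Gnas, 1 of 24 imprinted genes above 0 beside 3.96% of all genes, and above for Ube3a, again 1 of 24 beside 1.84%. Ube3a was low in both groups, with a control maximum of 0.307 RPKM and a TSA(0-8h) median of 0.466. It missed the minimum and was not tested here. Of 2490 genes tested, 4 were imprinted and 0 of these passed, as did 0% of all genes. Limma-voom called 0 of the 4 and 8 of all genes. An unadjusted p under 0.05 was reached by 0 higher and 2 lower imprinted genes, beside 5.46% and 9.44% of all genes. The log2 difference was -4.32 (SE 1.54, limma adjusted p = 0.154) for Gnas, -3.55 (SE 1.73, adjusted p = 0.332) for Mest, -2.39 (SE 1.65, adjusted p = 0.545) for Igf2r and 0.66 (SE 1.84, adjusted p = 0.919) for Sfmbt2. Gnas and Mest were tested only because all 3 control embryos reached 1 RPKM, and Igf2r only because all 3 TSA(0-8h) embryos did. Gnas passed at a minimum of 5 RPKM (adjusted p = 0.0116), which it again met through the control embryos alone, and there 4.32% of all genes were called lower. Within pools, Gnas was lower in 3 of 3, which its lack of overlap fixed in advance, and Mest and Igf2r were lower in 2 of 3. The Mest difference was -1.02 without control replicate 3, the embryo with 947 reads on the 108-base entry, and that of Igf2r was -4.09 without control replicate 1 and -1.26 without control replicate 2.

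The third comparison asked what late VC added to TSA, and shared its TSA(0-8h)+VC(8-15h) and TSA(0-8h) embryos with the first and the second. Igf2r, Usp29, Snrpn, Ube3a and Igf2 were higher in every TSA(0-8h)+VC(8-15h) embryo than in any TSA(0-8h) embryo, 5 of 26 imprinted genes beside 6.09% of all genes, and Sfmbt2 was lower, 1 of 26 beside 1.25%. Igf2 rested on 1 read in each of 2 of these embryos. Of 3140 genes tested, 5 were imprinted and 0 passed, as did 0% of all genes. Without adjustment, p was under 0.05 for 4 higher and 1 lower, beside 16.1% and 2.17% of all genes.

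The log2 difference was 4.74 (SE 1.23, limma adjusted p = 0.0689) for Usp29, 4.89 (SE 1.72, adjusted p = 0.127) for Snrpn, 4.24 (SE 1.55, adjusted p = 0.139) for Ube3a and 3.66 (SE 1.52, adjusted p = 0.204) for Igf2r. For Sfmbt2 it was -3.16 (SE 0.98, limma adjusted p = 0.0950). None of these 5 overlapped between the groups, which fixed their direction within each pool. The median of all genes tested was 1.20, against 0.05 after median-ratio scaling, and the direction of all 5 held with that scaling. With quantile normalization Igf2r stood at 1.67 (adjusted p = 0.792) and Ube3a at 2.72 (adjusted p = 0.606). Usp29 passed at a pseudocount of 0.1 (adjusted p = 0.0214), at a minimum of 5 RPKM (0.00266), with limma-voom (0.000268) and without TSA(0-8h)+VC(8-15h) replicate 2 (0.0380). These fits called 4.94%, 8.09%, 8.22% and 3.76% of all genes higher. Sfmbt2 passed at a pseudocount of 0.1 (adjusted p = 0.0359), beside 0.541% of all genes lower. Ube3a and Snrpn passed at a minimum of 5 RPKM (0.0363 and 0.0493), and Snrpn also with limma-voom (0.00194). Snrpn and Ube3a were tested only through their TSA(0-8h)+VC(8-15h) values, as was Usp29, and Sfmbt2 only through its TSA(0-8h) values.

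**Figure D5:**
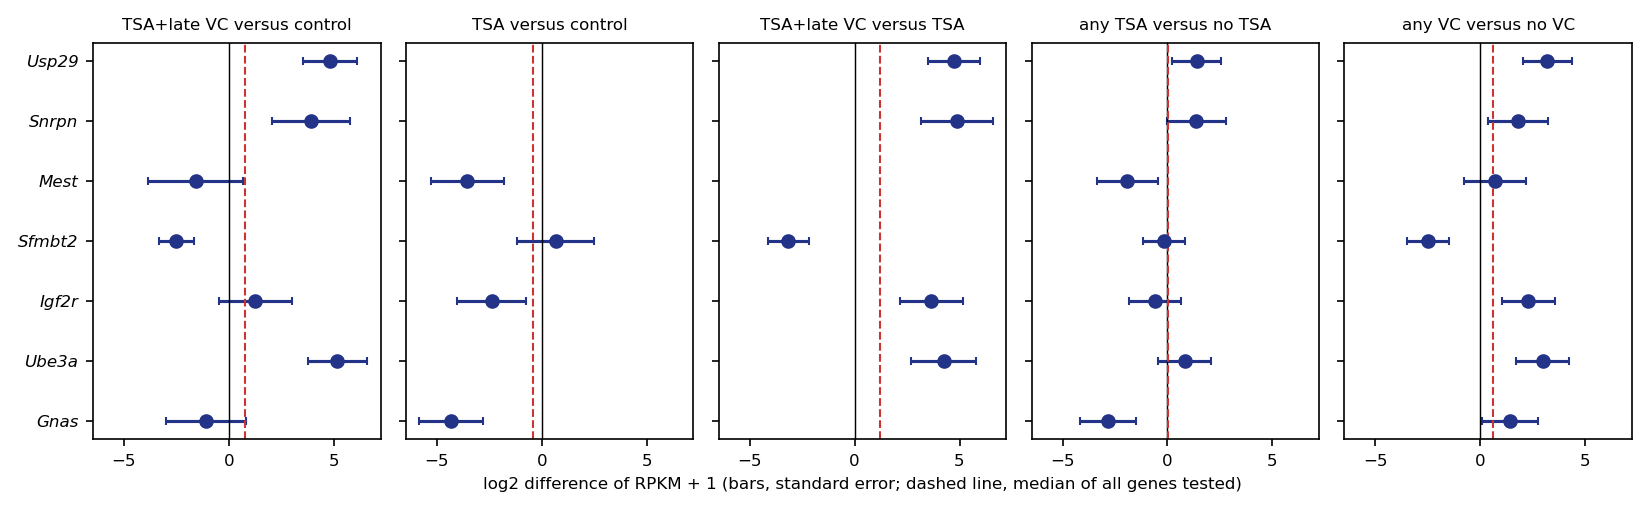
Log2 differences of RPKM + 1 (points) with their standard errors (bars) for the imprinted genes detected in at least 7 embryos, in 5 comparisons; a gene without a point did not pass the minimum there, and the dashed line is the median of all genes tested. Usp29 and Ube3a lie near 5 and Sfmbt2 at -2.50 for TSA(0-8h)+VC(8-15h) against control, and Gnas lies at -4.32 for TSA(0-8h) against control.

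All 14 embryos were then fitted with 1 term for any TSA and 1 for any VC, over 5032 genes at 1 RPKM or more in at least 6 embryos whatever their treatment. Impact was tested beside the 7 genes above, 8 imprinted genes in all. For any VC, 0 of 8 passed, as did 0% of all genes higher and 0.0199% lower. Unadjusted, 2 were higher and 1 lower, beside 8.92% and 1.23%. The log2 difference was 3.20 (SE 1.16, limma adjusted p = 0.333) for Usp29, 2.97 (SE 1.26, adjusted p = 0.393) for Ube3a and -2.51 (SE 1.00, adjusted p = 0.362) for Sfmbt2. Without VC(8-15h) replicate 2, the embryo with the fewest genes, they were 3.70, 3.61 and -2.49 (adjusted p = 0.221, 0.2397 and 0.311). With quantile normalization Ube3a stood at 1.70 (adjusted p = 0.830). The median of the 8 was 1.60, and that of all genes tested 0.60, against 0.04 for all genes after median-ratio scaling. For any TSA, 0 of 8 passed, as did 0% of all genes in either direction. Unadjusted, 0 were higher and 1 lower, beside 3.16% and 2.74%. The latter was Gnas, at -2.82 (SE 1.34, limma adjusted p = 0.828). Limma-voom called 0 of the 8 in either comparison.

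The interaction of TSA and late VC asked whether the difference with late VC was the same with and without TSA, over 6620 genes in 11 embryos. Of 12 imprinted genes, 0 passed, as did 0% of all genes in either direction, and limma-voom called 0 of the 12. Unadjusted, 1 was higher and 0 lower, beside 3.11% and 1.34% of all genes. It was Snrpn, with an interaction of 7.00 (SE 3.29, limma adjusted p = 0.892).

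Over all imprinted genes above 0, with no minimum, the median log2 difference was 0.04 of 26 genes for TSA(0-8h)+VC(8-15h) against control and 0.02 of all 13611 genes. It was -0.13 of 24 genes and -0.03 of all genes for TSA(0-8h) against control, and 0.20 of 26 genes and 0.07 of all genes for TSA(0-8h)+VC(8-15h) against TSA(0-8h). For any VC the median was 0.53 of 27 genes and 0.04 of all 15598 genes, and for any TSA -0.03 and -0.0012. Differences above 0 were held by 14 of 26 imprinted genes, beside 53.9% of all genes, in the first of these comparisons, by 9 of 24, beside 42.6%, in the second and by 21 of 26, beside 61.8%, in the third. For any VC they were 22 of 27, beside 62.8%, and for any TSA 12 of 27, beside 49.8%.

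Genes listed for setting, reading, keeping or removing imprint marks, Dnmt3a, Dnmt3l and Tet3 among them, were detected more widely than the imprinted genes themselves. Of these 19, 18 reached 1 RPKM in at least 7 embryos. Zfp57 ranged from 66.8 to 4914 RPKM and Trim28, its corepressor, from 2.25 to 220. Dppa3, a maternal factor that guards methylation, ranged from 0.208 to 776, and Dnmt1, the maintenance methyltransferase, from 1.65 to 106. In the 5 comparisons above, 0 of the 13 to 18 tested passed with limma on log2(RPKM + 1) at a minimum of 1 RPKM, while 0 or 1 were higher and 0 to 3 lower at an unadjusted p under 0.05. For TSA(0-8h)+VC(8-15h) against control, limma-voom called Setdb1 higher and Zfp57 lower (adjusted p = 0.0204 and 0.0454), beside 7.52% and 2.14% of all genes, and the limma fit at a minimum of 5 RPKM called Zfp57 lower (adjusted p = 0.0442), beside 1.53%. In the same comparison an unadjusted p under 0.05 was reached by 1 gene that was higher and 3 that were lower of 16 tested, beside 13.9% and 3.76% of all genes. The higher was Setdb1, an H3K9 methyltransferase, at a log2 difference of 5.12 (SE 1.81, limma adjusted p = 0.139). The lower were Zfp57 at -2.95 (SE 0.80, adjusted p = 0.112), Uhrf1, which recruits DNMT1, at -3.46 (SE 1.07, adjusted p = 0.112), and Dnmt3l, a cofactor of methylation in the germ line, at -2.13 (SE 0.92, adjusted p = 0.225). Setdb1 was tested, here and with limma-voom, only because all 3 TSA(0-8h)+VC(8-15h) embryos reached 1 RPKM. Dnmt3l was tested only because all 3 control embryos did.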

How the data were processed

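RNA of 14 single 2-cell SCNT embryos was made into 1 library each (NuGEN Ovation Single Cell RNA-seq, 14 and 12 PCR cycles) and sequenced as single-end 50 bp reads. Per the labels and methods, the authors trimmed and filtered reads, mapped them to mm9 with TopHat (TopHat2 in the submitters' processing notes), counted reads on UCSC exons and deposited RPKM values, that is counts divided by exon length and library total. The authors' counts were not used here.

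Entries of a gene were summed, and 25250 of 25650 entries matched a RefSeq symbol. Reads were recovered from the RPKM steps, and 14531 of 14532 entries above 0 in at least 2 embryos gave whole reads. The recovery and the fits were tested on simulated data. How reads on exons shared by several entries were counted was not given in the sources used here. Some recovered lengths match that of a single exon, and a sum over entries may count a read more than once. Floors and read counts cover counting error only.

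Groups came from the labels. Comparisons of 3 against 3 embryos used limma (version 3.58.1, R 4.3.3; lmFit, eBayes with a trend) on log2(RPKM + 1), which understates changes of low genes, with Benjamini-Hochberg adjustment over all genes tested at 0.05. Genes needed 1 RPKM in all 3 embryos of either group, 1 RPKM in at least 6 of 14 for the fits of all embryos, and 1 RPKM in any 3 of 11 for the interaction of TSA and VC(8-15h). Alternatives were a pseudocount of 0.1, no minimum, a minimum of 5 RPKM or of 1 RPKM in any 3 of 6 embryos, quantile and median-ratio scaling, the largest entry of a gene, a replicate block, 1 fit of all embryos, no trend, limma-voom on recovered reads, and leaving out each embryo.

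The 37 imprinted genes and all lists were chosen with earlier results of these data known. All 37 are accounted for. Those at 1 RPKM in at least 7 embryos are given by embryo, those in 1 to 6 by the embryos concerned, and the rest by count and name. Genes without an entry were not analysed for expression. Gene coordinates are mm9 (GENCODE M1), and promoter sequences are RefSeq, GRCm38.p6. Library pools were read from the library identifiers and held 5, 6 and 3 embryos. Where a treatment had 3 embryos, replicate numbers 1 to 3 match the pools. Python 3.11.15, numpy 2.4.6, pandas 2.3.3 and matplotlib 3.10.9 were used for the other steps.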

Additional observations from a re-analysis of the deposited data

Results flagged for a closer look

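The differences of Snrpn and Impact with late VC had opposite signs with and without TSA in every embryo treated with it. For Snrpn, both VC(8-15h) embryos were below the control mean on the log2(RPKM + 1) scale (by a mean difference of -2.11) and all 3 TSA(0-8h)+VC(8-15h) embryos were above the TSA(0-8h) mean (4.89). The interaction was 7.00 (SE 3.29, limma adjusted p = 0.892). For Impact the mean differences were 3.37 and -1.86, and the interaction was -5.24 (SE 2.94, limma adjusted p = 0.892). Of 12 imprinted genes in this fit, 0 passed with adjusted p and 1 had an unadjusted p under 0.05, beside 3.11% of all genes higher and 1.34% lower. Limma-voom on recovered reads also called 0 of the 12. Without control replicate 3 the Snrpn difference in embryos without TSA was -0.22 in place of -2.11. Without TSA(0-8h) replicate 1 the Impact difference in embryos with TSA was 0.16 in place of -1.86, so the signs were then no longer opposite. These values were chosen after seeing the data. The Snrpn interaction was between 5.11 and 8.08 and that of Impact between -6.56 and -3.21 as each of the 11 embryos was left out, with the Impact value closest to 0 without TSA(0-8h) replicate 1.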

How the results depend on the processing

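The counts of imprinted genes past the threshold were 0 in each comparison, and rose above 0 in these fits. For TSA(0-8h)+VC(8-15h) against control they were 2 at a pseudocount of 0.1, 2 at a minimum of 5 RPKM and 3 with limma-voom on recovered reads, all higher, beside 2.56%, 6.07% and 7.52% of all genes called higher. For TSA(0-8h) against control the count was 1 at a minimum of 5 RPKM, lower, beside 4.32%. For TSA(0-8h)+VC(8-15h) against TSA(0-8h) it was 2 at a pseudocount of 0.1 (1 higher and 1 lower, beside 4.94% and 0.541%), 3 at a minimum of 5 RPKM and 2 with limma-voom (all higher, beside 8.09% and 8.22%), and between 0 and 1 as each embryo was left out. With a replicate block by number it was 1 (Usp29, adjusted p = 0.0461), while 130 of all genes were called higher and 23 lower in place of 0 and 0, and same-numbered embryos did not deviate together (correlations of deviations from -0.048 to 0.051), so the numbers were not taken as pairs; the block changed no other count of imprinted genes. For TSA(0-8h)+VC(8-15h) against control it called 6 genes higher and 1 lower, the latter Zfp57 (adjusted p = 0.0227). The minimum of 5 RPKM tested fewer genes, and the cause of the added calls was not tested for any of these fits. The added fits for the interaction and for reads over summed entry lengths, chosen after seeing the data, called 0. With limma-voom the log2 difference of Usp29 for TSA(0-8h)+VC(8-15h) against control was 8.56 in place of 4.82, and that of Gnas for TSA(0-8h) against control -7.33 in place of -4.32. Of the refitted values of named genes, 319 kept their direction and side of the threshold, 17 passed it in the same direction, and 0 reversed. In each comparison the named genes were those with the largest differences. Where 2 groups of 3 embryos did not overlap, leaving out an embryo could not reverse the direction. The absence of reversals was thus partly fixed in advance. Imprinted genes detected in at least 7 of 14 embryos numbered 11 at 0.1 RPKM, 3 at 5 RPKM and 11 with at least 3 recovered reads in place of 7 at 1 RPKM, and 6 with reads over summed entry lengths. Without the embryos of 1 pool they numbered 5 to 8. Depth limits low genes: a 1 kb transcript under 0.993 RPKM had fewer than 3 reads in the shallowest library.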
